A study of Mus musculus with 27 samples.

Results

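This is a comparison of Rb1 state after 48 h in culture, made with 6 of the 27 arrays of a series on mouse foetal liver cells. The arrays were assigned to the sides by their labels alone. The Rb1-null side holds the 2 arrays labelled Rb1 KO at 48 h and the 1 array labelled Rb1;p107 DKO at 48 h. The Rb1-intact side holds the 2 arrays labelled wild type at 48 h and the 1 array labelled p107 KO at 48 h. These groups are called Rb1KO, DKO, WT and p107KO. p107, the product of the gene Rbl1, was thus absent by label from 1 of 3 arrays on each side. All cells came from E14.5 livers (counted in days of gestation), were cultured without further treatment in a serum-rich medium, and gave total RNA that was hybridized to Affymetrix mouse expression arrays. Strain, the altered part of Rb1 or Rbl1, and the number of embryos or litters behind each group are unstated in the labels. The p-values therefore rest on how far arrays of the same group differ, over all 27 arrays, and that spread may be largely technical. The 2 Rb1KO arrays at 48 h are not repeats of 1 sample, since only 1 of them gave Y-linked signal.

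Rb1, p107 and p130 are the pocket proteins, which bind E2F transcription factors and hold down genes needed for DNA replication and mitosis. p107 and p130 also join the MuvB proteins in the DREAM complex, which represses the same kind of gene in resting cells. At this stage most red cells of the embryo are made in the liver. A maturing erythroblast normally leaves the cell cycle, condenses and expels its nucleus, and removes its organelles, and Rb1 is known to be needed for that cell cycle exit.

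Promoters of some genes named below are shown first, because E2F factors bind short DNA elements near gene starts. They are examples and do not stand for the genes that rose, of which 9.5% held a match within 250 bases. Each is the 150 bases just before the gene's start, 5′ to 3′ on the gene's own strand, from RefSeq (GRCm38.p6). Capitals mark the letters TTTCCCGC, TTTGGCGC, TTTGCCGC or TTTCGCGC, strings of the E2F type, on either strand. The first 5 genes were higher in Rb1-null arrays and hold such a match, and Ackr3, with a match as well, was lower. The rise of Rbl1 did not pass in every fit, as given below.
Zfp367, chr13:64153200-64153349, minus strand: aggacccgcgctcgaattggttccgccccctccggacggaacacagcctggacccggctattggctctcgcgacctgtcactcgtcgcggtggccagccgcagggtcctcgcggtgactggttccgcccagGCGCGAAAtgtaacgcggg
Rbl1, chr2:157204535-157204684, minus strand: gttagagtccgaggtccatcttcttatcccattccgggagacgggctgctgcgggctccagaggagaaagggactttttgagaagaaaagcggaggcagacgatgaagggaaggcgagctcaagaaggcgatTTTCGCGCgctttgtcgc
Cdk1, chr10:69352913-69353062, minus strand: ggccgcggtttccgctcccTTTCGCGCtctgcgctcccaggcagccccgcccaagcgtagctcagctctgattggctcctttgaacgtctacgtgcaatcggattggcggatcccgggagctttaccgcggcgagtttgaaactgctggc
Ncapd2, chr6:125191587-125191736, minus strand: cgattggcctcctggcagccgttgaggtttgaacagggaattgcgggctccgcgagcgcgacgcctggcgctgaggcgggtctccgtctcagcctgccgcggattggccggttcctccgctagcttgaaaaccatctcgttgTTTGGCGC
Gfi1b, chr2:28621983-28622132, minus strand: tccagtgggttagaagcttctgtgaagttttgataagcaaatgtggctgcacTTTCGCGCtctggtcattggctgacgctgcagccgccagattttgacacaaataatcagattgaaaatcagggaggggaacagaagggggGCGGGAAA
Ackr3, chr1:90203830-90203979, plus strand: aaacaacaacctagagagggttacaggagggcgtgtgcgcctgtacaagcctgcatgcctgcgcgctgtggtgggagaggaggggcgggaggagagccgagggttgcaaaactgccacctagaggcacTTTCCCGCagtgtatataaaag
The 2 genes for the inducible heat shock protein HSP70 are shown for their likeness. Their windows hold no match and differ at 1 of 150 bases. These bases lie before the gene start and are not part of the RNA that probes read. Whether the probe sets separate the neighbouring copies was not checked.
Hspa1a, chr17:34972157-34972306, minus strand: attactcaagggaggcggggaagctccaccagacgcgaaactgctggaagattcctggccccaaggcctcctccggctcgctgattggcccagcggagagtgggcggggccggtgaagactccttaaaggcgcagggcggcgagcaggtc
Hspa1b, chr17:34959239-34959388, minus strand: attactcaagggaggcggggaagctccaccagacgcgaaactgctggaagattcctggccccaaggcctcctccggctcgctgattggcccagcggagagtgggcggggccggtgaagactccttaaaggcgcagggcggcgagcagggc

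Counting the first promoter listed for a gene, one of these E2F-type strings lay within 250 bases before the start in 86 of the 906 genes that rose at 48 h and had a promoter in the RefSeq table, or 9.5%. Among the 495 genes that fell, 12 had one, or 2.4%. Over all 8912 tested genes with a promoter it was 337, or 3.8%, and of all 32851 promoters in RefSeq's list 1.9% held one. The replication genes described below had a match in 9 of 38, or 23.7%. Another string searched on both strands was TTTGAA, the core of the cell cycle homology region. It lay in 13.8% of genes that rose, 12.5% of those that fell and 10.4% of all tested genes. The share was 28.6% in the mitotic genes described below and 16.0% in all 32851 promoters, above that of genes that rose. CCAAT, a string added after the data were seen and searched the same way, lay in 43.9% of genes that rose and 37.6% of those that fell. It lay in 36.5% of all tested genes, 69.0% of the mitotic genes and 33.8% of all promoters. A match is a description of the letters only, and binding was not measured.

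Signals are MAS5 values on a linear scale and serve to compare arrays for a gene, not genes with each other. Changes are differences of log2(signal + 32) between the mean of the Rb1-null and the mean of the Rb1-intact arrays, with standard errors (SE) and Benjamini-Hochberg adjusted p-values from limma over 10916 genes. Fold changes are on the same scale, which understates the change of dim genes. "Rose" and "fell" mean an adjusted p under 0.05. The 6 arrays had median signals of 82.1 to 98.1. Correlations across genes were 0.964 to 0.975 within each side and 0.929 to 0.954 between the sides. The Y-linked gene Eif2s3y gave 1351 in Rb1KO replicate 2 and 1600 in DKO, 2.3 in Rb1KO replicate 1, and 3.6 to 26.4 on the Rb1-intact side, and the Y-linked Kdm5d had the same pattern. Xist, the RNA of the inactive X chromosome, gave 83.9 and 121.5 in the 2 arrays with Y-linked signal, 5616 in Rb1KO replicate 1 and 1656 to 2074 on the Rb1-intact side. Sex by this measure was therefore not balanced, with 2 of 3 Rb1-null and 0 of 3 Rb1-intact arrays holding male RNA. Many counts are also given below with both of them left out, which leaves 1 Rb1-null array (Rb1KO replicate 1).

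The targeted genes were examined first. Rb1 gave 5746 and 6583 in WT, 5314 in p107KO, 4207 and 5453 in Rb1KO, and 5994 in DKO. The sides overlapped, and the difference did not pass (log2 -0.18 ± 0.20 SE, adjusted p = 0.603). In the same comparison at 0 h and 24 h the Rb1 signal was lower on the Rb1-null side, by -1.80 ± 0.14 and -1.24 ± 0.17 on the log2 scale (SE). So this probe set does not check the Rb1 labels at 48 h, and "Rb1-null" here stands for the label. A further Rb1 probe set was dim, at 70.0 to 103.6 on the Rb1-intact and 91.3 to 137.2 on the Rb1-null side, and with the mean over both probe sets the difference was 0.033.

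Rbl1, which encodes p107, followed its labels. It gave 877 and 798 in WT, 70.3 in p107KO, 1278 and 1567 in Rb1KO, and 123 in DKO. Both arrays labelled as lacking p107 were below all others, and Rb1KO lay above WT. Over the whole comparison Rbl1 rose (log2 0.69 ± 0.22 SE, adjusted p = 0.0340), but not without Rb1KO replicate 1 (0.22), without Rb1KO replicate 2 (0.080) or without p107KO (-0.34), with adjusted p-values of 0.610, 0.910 and 0.424. With the mean over its probe sets the rise did not pass either (0.28, adjusted p = 0.465), nor with pseudocount 100 (0.0545), without the filter on dim genes (0.0506) or with the Y-linked term (0.0606). Rbl2, which encodes p130, ran from 437 to 581 on the Rb1-intact and 388 to 550 on the Rb1-null side, a log2 difference of -0.022 ± 0.28 (SE, adjusted p = 0.972).

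**Figure D1:**
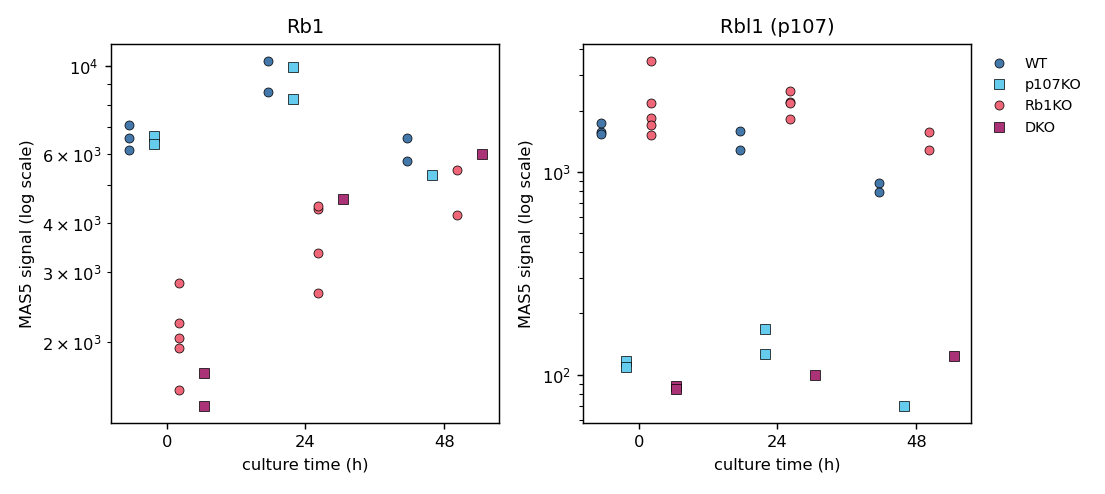
MAS5 signal (log axis) of Rb1 and Rbl1 in all 27 arrays by culture time, 1 point per array, colour and shape for genotype. Rb1KO and DKO arrays lay below the others for Rb1 at 0 h and 24 h and among them at 48 h (4207 to 5994 against 5314 to 6583), while Rbl1 was low in every array labelled as lacking p107.

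At 48 h 1699 genes differed by Rb1 state, 15.6% of those tested. Of these, 1094 (10.0% of all tested) rose and 605 (5.54%) fell, 474 and 168 of them by 2-fold or more, against a median over all genes of -0.090 on the log2 scale. Without the 2 arrays with Y-linked signal 490 genes passed, 363 higher and 127 lower, and with Y-linked signal as a term over all arrays 1285 did. In 1700 genes all 3 Rb1-null arrays lay above all 3 Rb1-intact arrays, and in 1765 all lay below (15.6% and 16.2% of genes), so groups that do not overlap are common in both directions.

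The largest rises, ranked only among genes whose sides do not overlap, reached more than 10-fold. Zfp367, a zinc finger protein, gave 652 and 725 in WT, 845 in p107KO, 7574 and 10025 in Rb1KO and 10416 in DKO. All 3 Rb1-null arrays were far above the rest, a 12.1-fold rise (log2 3.59 ± 0.17 SE, adjusted p = 2.56e-12). P2rx7, a channel opened by extracellular ATP, gave 451, 576 and 347 on the Rb1-intact side (WT 1, WT 2, p107KO, the order kept below) and 6057, 5359 and 5748 on the Rb1-null side (Rb1KO 1, Rb1KO 2, DKO), 11.9-fold higher (log2 3.58 ± 0.27 SE, adjusted p = 3.95e-09). Neither side came near the other. Dleu2, a long non-coding RNA that hosts miR-15a and miR-16-1, gave 712, 1037 and 785 against 10702, 9757 and 9180. This was an 11.4-fold rise (log2 3.51 ± 0.22 SE, adjusted p = 4.19e-10). Of 16 tested genes on a list compiled as Rb1's chromosomal neighbours, Dleu2 included, 3 rose: Dleu2, Spryd7 (0.99) and Kpna3 (0.83). Their distance from Rb1 was not checked. Hspa1a and Hspa1b, the HSP70 copies, rose 10.1-fold and 8.67-fold, with Hspa1b at 1888, 2126 and 1724 against 13833, 16986 and 20026.

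Further genes among the 15 largest rises have known parts in repair, mitotic control and centrioles. Rad51c, which acts in homologous recombination, gave 183, 92.4 and 164 against 1507, 1478 and 1715, 9.19-fold higher (log2 3.20 ± 0.22 SE, adjusted p = 8.83e-10). Fbxo5, the EMI1 inhibitor of the anaphase-promoting complex, gave 2573, 2169 and 2909 against 13562, 14700 and 17114, 5.88-fold higher (log2 2.56 ± 0.21 SE, adjusted p = 1.18e-08). Ccp110, which caps centrioles, rose 5.34-fold (log2 2.42 ± 0.16 SE, adjusted p = 6.09e-10). That every Rb1-null array exceeded every Rb1-intact array was a condition of this ranking. The remaining genes of the 15 largest rises were Apold1, Otud1 (a deubiquitinase), Csrp3 (a muscle LIM protein), Rasgrf2 (a Ras exchange factor), Zfp948, Ahi1 (a ciliary protein) and the non-coding RNA Lockd. Their log2 changes ran from 2.56 (Lockd) to 2.69 (Apold1).

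The largest falls, also ranked only among genes whose sides do not overlap, were smaller than the largest rises. Cish, a STAT5-induced inhibitor of cytokine receptor signalling, gave 7402, 6520 and 5584 on the Rb1-intact and 2009, 1941 and 1778 on the Rb1-null side, 3.35-fold lower (log2 -1.74 ± 0.16 SE, adjusted p = 8.13e-08). The arrays of each side lay close together. Sertad3, a SERTA domain protein, gave 5803, 7195 and 6078 against 1889, 1626 and 1061, 4.20-fold lower (log2 -2.07 ± 0.20 SE, adjusted p = 9.32e-08). Crem, a cAMP-responsive transcription factor, gave 4073, 7279 and 4488 against 1689, 1408 and 966, lower as well (log2 -1.93 ± 0.22 SE, adjusted p = 1.10e-06). Mllt3, an elongation complex subunit known for its role in blood stem cells, gave 10462, 16073 and 9235 against 3766, 4819 and 2611, 3.18-fold lower (log2 -1.67 ± 0.21 SE, adjusted p = 5.18e-06). DKO was the lowest array for all 4. Cystm1 (log2 -2.35), Rundc3a, 3110040M04Rik, Csrnp2, Hmox1, Nyx, Ptpn14, Dapp1, Calcrl and Asb1 (-1.61) were among the 15 largest falls too. Rbp4, a retinol carrier secreted by hepatocytes, also fell (-1.83), but not without Rb1KO replicate 2 (adjusted p = 0.0604).

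**Figure D2:**
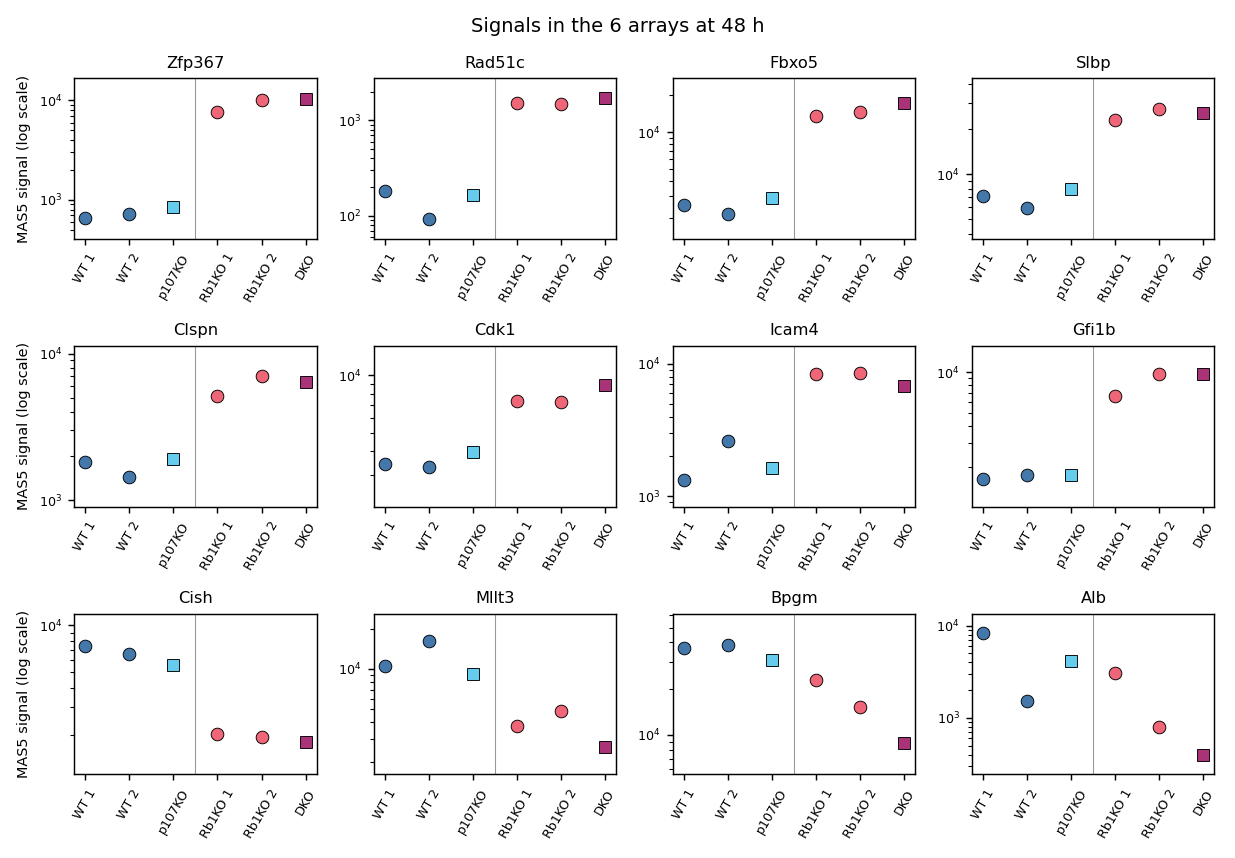
MAS5 signal (log axis, a separate range for each gene) of 12 genes in the 6 arrays at 48 h, Rb1-intact arrays left of the line and Rb1-null arrays right of it; the genes were picked after their values were seen. The sides separate for 11 genes, such as Zfp367 (652 to 845 against 7574 to 10416), and overlap for Alb (1518 to 8331 against 393 to 3062).

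Among the pocket proteins, MuvB proteins and their partners, 6 of 10 rose and 0 fell, with a median of 0.76. Leaving out both arrays with Y-linked signal gave 2. Against the 6 and 0 stand 10.0% and 5.54% of all genes and a median of -0.090. Mybl2, the B-Myb factor that MuvB binds in dividing cells, gave 701, 692 and 665 against 1445, 2226 and 1874 (log2 1.37 ± 0.24 SE, adjusted p = 0.000245). Dyrk1a, the kinase that promotes DREAM assembly, rose by 0.98, and the MuvB members Lin9, Rbbp4 and Lin54 by 0.98, 0.83 and 0.90. The remaining gene of the 6 was Rbl1, itself targeted, whose rise did not pass in every fit. Rb1 is on the list too. Of 10 E2F and DP factors 5 rose and 1 fell. The atypical repressors E2f8 and E2f7 rose by 2.02 and 1.76, the repressor E2f6 by 1.24, the activator E2f1 by 1.25, and Tfdp1, a DP partner, by 0.42. E2f8 gave 2339, 1875 and 2813 against 8705, 9693 and 10004. Tfdp2, the other DP partner, fell by 0.99 on the log2 scale in its brightest probe set, with -0.94 in the next brightest and 0.34 in one at a mean signal of 2308, and the fall did not pass without DKO (adjusted p = 0.0747).

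Cyclins and kinases of the G1/S step rose in 8 of 14 genes and fell in 1, Cdk6 (-0.54), with a median of 0.88. Over all genes 10.0% rose and 5.54% fell. No gene of the list fell when any 1 of WT replicate 1, p107KO, Rb1KO replicate 1, Rb1KO replicate 2 and DKO was left out. Ccne1 and Ccne2, the E cyclins that activate CDK2 at the start of S phase, rose by 1.89 ± 0.18 and 1.80 ± 0.24 (SE), with Ccne1 at 621, 587 and 544 against 1986, 3719 and 1544. A Ccne1 probe set that was brighter at 48 h gave 0.87. Rb1KO replicate 2 was the highest array for both. Ccna2, the A cyclin of S and G2 phase, rose by 1.06 and Dbf4, the activator of the CDC7 kinase, by 0.91. CDK inhibitors went both ways: Cdkn2c (p18), Cdkn3 and Cdkn2d (p19) rose by 1.89, 1.05 and 0.90, and Cdkn2b (p15) fell by 1.18 on the log2 scale. The Cdkn2b fall did not pass without WT replicate 2 (adjusted p = 0.162) or without DKO (0.123). Cdkn1b, p27, gave 0.12 ± 0.19 (SE, adjusted p = 0.729).

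Genes of origin licensing and the replication fork moved in 1 direction, while of all genes 10.0% rose and 5.54% fell. Of 48 tested genes 31 rose and 0 fell, with a median of 0.78, and 15 rose without the 2 arrays with Y-linked signal. Clspn, the claspin mediator of the replication checkpoint, gave 1816, 1452 and 1903 against 5102, 7010 and 6446, 3.53-fold higher (log2 1.82 ± 0.15 SE, adjusted p = 1.18e-08). Orc6, an origin recognition subunit, rose by 1.88, Prim1, the primase subunit, by 1.56, Donson, a fork protein, by 1.59, and Gmnn, the geminin inhibitor of licensing, by 1.10. For these 5 genes every Rb1-null array exceeded every Rb1-intact array. Nucleotide synthesis was less uniform, with 6 of 17 higher, 2 lower (Nme1 and Atic, both -0.57) and a median of 0.27. The falls numbered 0 without WT replicate 1, 0 without Rb1KO replicate 2, 1 without WT replicate 2, p107KO or Rb1KO replicate 1, 4 without DKO and 0 with the Y-linked term. Without both arrays with Y-linked signal 3 rose and 0 fell. Tyms, thymidylate synthase, rose by 1.76, and the ribonucleotide reductase subunits Rrm1 and Rrm2 by 0.88 and 1.05.

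Histone supply and chaperone genes rose in 9 of 14 cases, with 0 lower and a median of 0.88, against 10.0% of all genes higher. Slbp, which binds the stem-loop of histone messages, gave 7179, 5927 and 7946 against 23271, 27422 and 25938, 3.65-fold higher (log2 1.87 ± 0.12 SE, adjusted p = 6.09e-10). The 3 arrays of each side formed tight and separate groups. Asf1b, a histone H3-H4 chaperone, rose by 1.99, H2ax by 1.29 and Anp32e, which removes H2A.Z, by 1.06. Homologous recombination genes rose in 10 of 22 cases, with 0 lower and a median of 0.57, and in 3 without both arrays with Y-linked signal. Besides Rad51c, Brca1 rose by 1.87, Rad54b by 1.51 and Rad51ap1 by 1.09.

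Mitotic spindle, kinetochore and checkpoint genes rose in 30 of 49 cases, with 0 lower and a median of 0.68, against 10.0% of all genes higher. Leaving out DKO gave 19, and leaving out both arrays with Y-linked signal gave 10. Cdk1, the kinase that drives mitosis, gave 3440, 3296 and 3971 against 7285, 7233 and 8840, 2.17-fold higher (log2 1.12 ± 0.12 SE, adjusted p = 8.41e-07). DKO was the highest array, and the sides did not overlap. Cenpk, a kinetochore protein, rose by 2.07, Sgo1, the shugoshin that guards centromeric cohesion, by 1.70, Tpx2, a spindle assembly factor, by 1.28, and Prc1, which bundles midzone microtubules, by 1.14. Cytokinesis genes rose in 6 of 14 cases, or 2 without both arrays with Y-linked signal, led by Racgap1 (1.67), a subunit of centralspindlin. Of 21 condensin and cohesin genes 14 rose and 0 fell, with a median of 0.90, and 3 rose without the 2 arrays with Y-linked signal. Esco2, the acetyltransferase that locks cohesin onto replicated DNA, gave 941, 819 and 982 against 2848, 3513 and 6424 (log2 2.10 ± 0.20 SE, adjusted p = 9.54e-08). The condensin subunit Ncapd2 gave 2235, 2219 and 2928 against 4808, 7776 and 9091, while a dim probe set of it (mean signal 190.6) differed by 0.14. Ncapd3 and Ncaph rose by 1.55 and 1.34.

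**Figure D3:**
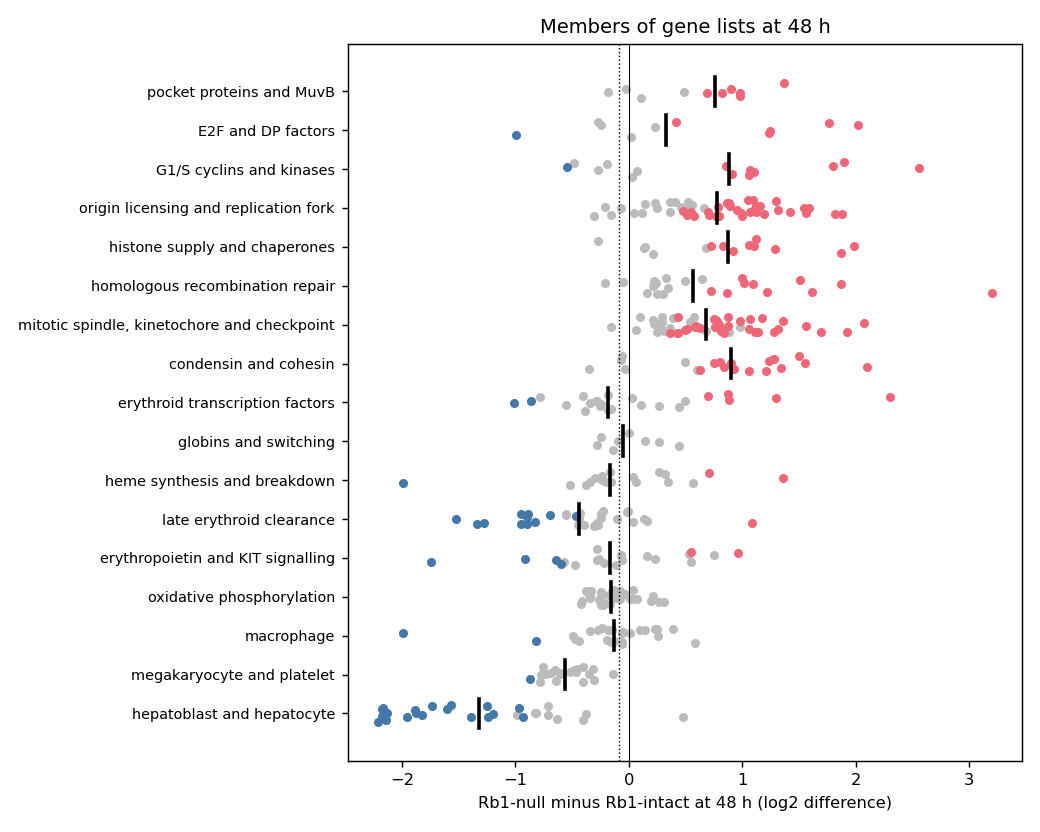
Log2 difference between Rb1-null and Rb1-intact arrays at 48 h for each tested gene of 17 lists, 1 point per gene: red for genes that rose, blue for genes that fell, grey for genes that did not pass; the black bar is the list's median and the dotted line the median of all genes (-0.090). Replication, histone, mitotic and condensin lists lie right of the line with medians of 0.68 to 0.90, and the hepatocyte list lies left of it with a median of -1.32.

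Chromatin genes of DNA methylation and the Polycomb complexes rose in 6 of 15 cases and fell in 0, against 10.0% and 5.54% of all genes. Without WT replicate 2, 4 rose, without both arrays with Y-linked signal 1, and with the mean over probe sets 3 rose and 1 fell. Uhrf1, which recruits the maintenance methyltransferase, rose by 1.04, Dnmt1 itself by 0.55, and Ezh2, the Polycomb methyltransferase, by 1.18. Among p53 and its targets 2 of 26 rose and 3 fell, against the same 10.0% and 5.54% of all genes. The falls in this list numbered 5 with pseudocount 100 instead of 32 and 1 without DKO. The phosphatase gene Ppm1d rose by 1.39 and Polk, a translesion polymerase, by 0.87. Gadd45a gave 37314, 41444 and 34012 against 23085, 24234 and 14144 (log2 -0.91 ± 0.17 SE, adjusted p = 0.000412). Mdm2 and Bbc3 fell too (-0.84 and -0.74), but neither passed without DKO (adjusted p = 0.0619 and 0.246). Mdm2 also did not pass without WT replicate 2 (0.0797), nor Bbc3 without WT replicate 1, p107KO or Rb1KO replicate 2 (0.0643, 0.175 and 0.0623). Of 14 heat shock genes 4 rose and 1 fell, the HSP70 copies and the chaperones Dnajb1 and Hsp90aa1 (1.19 and 0.78) being higher and Hspb1 (-1.17) lower. Hspb1 did not pass without WT replicate 1 (adjusted p = 0.139), Rb1KO replicate 2 (0.0589) or DKO (0.116). In the BCL2 family of 12 genes the death activator Bcl2l11 rose (1177, 827 and 1029 against 2895, 3256 and 2547, adjusted p = 3.75e-05), and Bbc3 and the survival gene Bcl2l1 fell. Of 14 genes of death receptors and cytokines Ackr3 (-1.48) and Fasl (-1.31) fell, Fasl not without WT replicate 1, WT replicate 2 or DKO (adjusted p = 0.0944, 0.0582 and 0.0763).

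Erythroid genes did not move as 1 block, set against 10.0% of all genes higher and 5.54% lower. Of 8 tested genes of globins and their switching 0 rose and 0 fell, with a median of -0.048. Hbb-b2, an adult beta-globin gene, gave 25686, 33402 and 23668 against 23341, 30975 and 20987, overlapping throughout, and globin copies share sequence, so probe sets may read several. Among 24 erythroid transcription factors 5 rose and 2 fell, with a median of -0.18. Without both arrays with Y-linked signal 2 rose and 0 fell, and 1 fell when any 1 of WT replicate 1, p107KO, Rb1KO replicate 1 and DKO was left out. Gfi1b, a repressor needed for erythroid development, gave 1631, 1739 and 1742 against 6621, 9688 and 9724, 4.94-fold higher (log2 2.31 ± 0.31 SE, adjusted p = 1.34e-05). All 3 Rb1-intact arrays lay within a narrow range. Hemgn, a nuclear protein of blood progenitors, rose by 1.30, Tal1 by 0.87, Zfpm1, the cofactor FOG1 of GATA1, by 0.88, and Zfp36l2 by 0.70. Foxo3 and Cbfa2t3 fell, by 1.01 and 0.87 on the log2 scale. Klf1, an activator of many red cell genes, gave 0.27 ± 0.19 (SE, adjusted p = 0.394).

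Surface, haem and skeleton genes included some that passed and more that did not. Over all genes 10.0% rose and 5.54% fell, and of the 17 blood group genes 2 rose and 4 fell. Icam4, the Landsteiner-Wiener blood group antigen, gave 1332, 2622 and 1622 against 8343, 8519 and 6768, 4.33-fold higher (log2 2.12 ± 0.21 SE, adjusted p = 1.75e-07), while Rhd rose by 0.89. Xk, Slc14a1, Art4 and Abcb6 fell, Xk by 1.29 in its brightest probe set and 0.30 in a dimmer one, and 11 of the 17 blood group genes did not pass. Art4 did not pass without DKO (adjusted p = 0.0640). In the membrane skeleton Sptb, beta-spectrin, rose by 1.28 and the other 12 tested genes did not pass. Among 18 haem genes Blvra and Cpox rose and Hmox1 fell. Hmox1, haem oxygenase 1, gave 17411, 21354 and 8770 against 7173, 3445 and 2043 (log2 -1.99 ± 0.41 SE, adjusted p = 0.00144). Cpox did not pass without WT replicate 1 (adjusted p = 0.0552). Of 20 erythropoietin and KIT signalling genes 2 rose and 4 fell: Cish, Spry1, Pim1 and Bcl2l1 were lower, the last not without DKO (adjusted p = 0.110) or WT replicate 2 (0.0713), and Socs2 and Gab2 higher. Socs2 did not pass without Rb1KO replicate 2 (adjusted p = 0.0606), where 0 of the list rose, and 4 rose without Rb1KO replicate 1. Without both arrays with Y-linked signal 1 of the blood group genes rose and 1 fell, and 0 of the signalling genes rose and 1 fell.

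Genes known for the late steps of red cell maturation include those of autophagy and protein disposal. Of 30 tested 11 fell and 1 rose, against 5.54% and 10.0% of all genes, with a median of -0.44. The falls numbered 4 without the 2 arrays with Y-linked signal. Ube2o, the ubiquitin enzyme that clears ribosomal proteins from reticulocytes, gave 17955, 21632 and 15657 against 7096, 8118 and 4389, 2.88-fold lower (log2 -1.52 ± 0.21 SE, adjusted p = 2.06e-05). Bpgm, which makes 2,3-bisphosphoglycerate, gave 36712, 38317 and 30903 against 22785, 15162 and 8839, 2.42-fold lower (log2 -1.28 ± 0.20 SE, adjusted p = 9.37e-05). DKO was the lowest array for both. Tcp11l2, whose role here is less clear, fell by 1.33, Ulk1, the kinase that starts autophagy, by 0.95, and Gabarapl1, an ATG8 protein, by 0.89. Ulk2, the relative of Ulk1, rose by 1.09. Of 34 genes of oxidative phosphorylation 0 rose and 0 fell by limma, although in 16 all 3 Rb1-null arrays lay below all Rb1-intact arrays. The background for that ordering is 16.2%. Sdha, a complex II subunit, gave -0.42 ± 0.15 (SE, adjusted p = 0.0512).

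Lists of metabolism gave few calls each, set against 15.6% of all genes. Slc11a2 rose and Ncoa4, the ferritin receptor of autophagy, fell among 13 iron genes. The Slc11a2 rise was 0.56 in its brightest probe set, with 0.16 in the next brightest and -0.51 and 0.036 in dimmer ones. Polg2 rose and Twnk fell among 18 genes of mitochondrial biogenesis, and Pklr, the red cell pyruvate kinase, and Slc2a3 fell among 18 glycolysis genes. Gpx4 rose and Hmox1 and Cat, catalase, fell among 19 antioxidant genes, and Fdft1 rose among 20 of cholesterol synthesis. Of these, Pklr, Hmox1 and Cat passed with each array left out in turn, and the others did not pass without at least 1 array, such as WT replicate 1 for Slc11a2 (adjusted p = 0.0536), DKO for Ncoa4 (0.123), Rb1KO replicate 2 for Twnk (0.327), WT replicate 2 for Polg2 (0.213), DKO for Slc2a3 (0.107), p107KO for Gpx4 (0.105) and Rb1KO replicate 2 for Fdft1 (0.0903).

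Calls among signalling genes stand against 10.0% of all genes higher and 5.54% lower. Among 17 immediate early genes Dusp1, a MAP kinase phosphatase, and Ier3 rose, by 1.48 and 0.52, and Crem, Klf6 and Zfp36 fell. Ier3 did not pass without WT replicate 2, p107KO, Rb1KO replicate 1 or Rb1KO replicate 2 (adjusted p = 0.196, 0.0559, 0.151 and 0.0985). In the MYC network Mxd3 rose by 2.12 and Mxd1, a MYC antagonist of maturing cells, fell by 1.03 on the log2 scale, while Myc gave -0.47 ± 0.21 (SE, adjusted p = 0.136). Xbp1 and Dnajb9, of the unfolded protein response, fell by 0.70 and 0.66, the latter not without DKO (adjusted p = 0.106). Of 23 interferon-stimulated genes Ifit1 fell by 1.32 and Stat2 rose by 1.00. Ifit1 did not pass without Rb1KO replicate 1 (adjusted p = 0.0779), and Stat2 not without DKO (0.128) or WT replicate 2 (0.0797).

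Hepatocyte markers differed more than those of any other cell type listed. Of 28 hepatoblast and hepatocyte genes 19 fell and 0 rose, against 5.54% and 10.0% of all genes, with a median of -1.32. In 7 of the 28 all Rb1-null arrays lay below all Rb1-intact arrays, against 16.2% of all genes, so many of the falls came with overlapping sides. Their summed signal was 52815, 13702 and 33378 on the Rb1-intact and 20640, 6253 and 4717 on the Rb1-null side, so WT replicate 2 lay below Rb1KO replicate 1. Alb, serum albumin, gave 8331, 1518 and 4097 against 3062, 793 and 393 (log2 -1.87 ± 0.50 SE, adjusted p = 0.0119). The falls numbered 11 without WT replicate 1, 10 without p107KO, 12 without Rb1KO replicate 2, 8 without DKO, and 0 without both arrays with Y-linked signal. With the 6 arrays fitted alone 4 fell. In bulk RNA, fewer cells of a type and less RNA per cell cannot be told apart. The part of these cells in the changes of other genes was not tested.

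Markers of other cell types moved less, and their counts stand against 10.0% of all genes higher and 5.54% lower. Of 25 macrophage genes Hmox1 and Vcam1 fell and 0 rose, with summed signals of 76521 to 133589 on the Rb1-intact and 68149 to 125539 on the Rb1-null side. Vcam1 did not pass without any 1 of WT replicate 1 (adjusted p = 0.148), WT replicate 2 (0.0559), Rb1KO replicate 2 (0.122) and DKO (0.115). Of 20 megakaryocyte and platelet genes F2rl2 fell and 0 rose, and the median was -0.56. Their sums were 102066 to 102979 and 61600 to 89217. In 11 of the 20 all Rb1-null arrays lay below all Rb1-intact arrays, against 16.2% of all genes. F2rl2 did not pass without WT replicate 2, Rb1KO replicate 1 or Rb1KO replicate 2 (adjusted p = 0.0738, 0.0570 and 0.0865), and 4 genes of the list fell without Rb1KO replicate 1 and 2 without DKO. None of 17 neutrophil, 8 mast cell or 4 tested lymphoid genes passed, 1 of 15 endothelial genes fell (Esam, not without WT replicate 2, adjusted p = 0.0639), and 1 of 17 stromal genes (Col5a1) rose by 1.65, with 0.68 in a probe set that was brighter at 48 h. Of 20 stem and progenitor genes Mllt3 and Slamf1 fell, Slamf1 not without WT replicate 2, p107KO, Rb1KO replicate 1 or Rb1KO replicate 2 (adjusted p = 0.111, 0.0568, 0.0521 and 0.111). Of 5 tested sex-linked genes Kdm5c, on the X chromosome, fell (-0.99), most of its other probe sets differed the same way with 0.015 in one, and without DKO it did not pass (adjusted p = 0.0571). The 8 tested genes of globins and their switching had summed signals of 101013 to 145333 on the 6 arrays, which places RNA of the red cell lineage in every sample. Hemgn and Tal1, both of which rose, stood at 12246 to 35886 and 8308 to 22404.

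The Rb1 comparison can be split by p107 state into 2 pairs on separate arrays, which share the estimate of the spread. Rb1KO against WT (2 against 2) gave 814 higher (7.46%) and 317 lower genes (2.9%), 10.4% of those tested in all. The total was 641 without WT replicate 2 and 492 without Rb1KO replicate 2. DKO against p107KO (1 against 1, with the spread borrowed from the other groups) gave 297 higher (2.72%) and 115 lower (1.05%), 3.77% in all. With 1 array in each arm these calls have no replicate check, and their number was 86 with the 6 arrays fitted alone, 255 with the Y-linked term and 790 with array weights. Of the 814 genes, 799 (98.2%) were higher in the other pair too, and 272 (33.4%) passed there, which is 91.6% of that pair's 297. Of the 317 genes, 304 (95.9%) were lower in the other pair, and 77 (24.3%) passed, 67.0% of 115. Over all genes 73.2% had the same sign in both pairs.

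No gene passed the test of the difference between the 2 pairs (0 of 10916 by limma, 197 at an unadjusted p under 0.05). The Zfp367 change was 3.60 with p107 intact and 3.57 with p107 lost, a difference of -0.03 with a 95% interval of -0.76 to 0.70. That of Slbp was 1.95 and 1.70, a difference of -0.25 (-0.78 to 0.29). A miss at the threshold does not show that both changes are equal, as the intervals show. Alb gave -1.17 and -3.28, a difference of -2.11 (-4.33 to 0.11), and Afp, alpha-fetoprotein, -1.16 and -2.87, a difference of -1.70 (-3.52 to 0.12). The median over the 28 hepatocyte genes was -1.01 and -2.24 in the 2 pairs, while over the 48 replication genes it was 0.77 and 0.67, and over the 49 mitotic genes 0.59 and 0.79. For p107 state at 48 h (2 arrays against 4, Rb1 states weighted equally) 1 gene passed (0.00916%), Rbl1 itself (log2 -3.16 ± 0.23 SE, adjusted p = 3.64e-08).

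**Figure D4:**
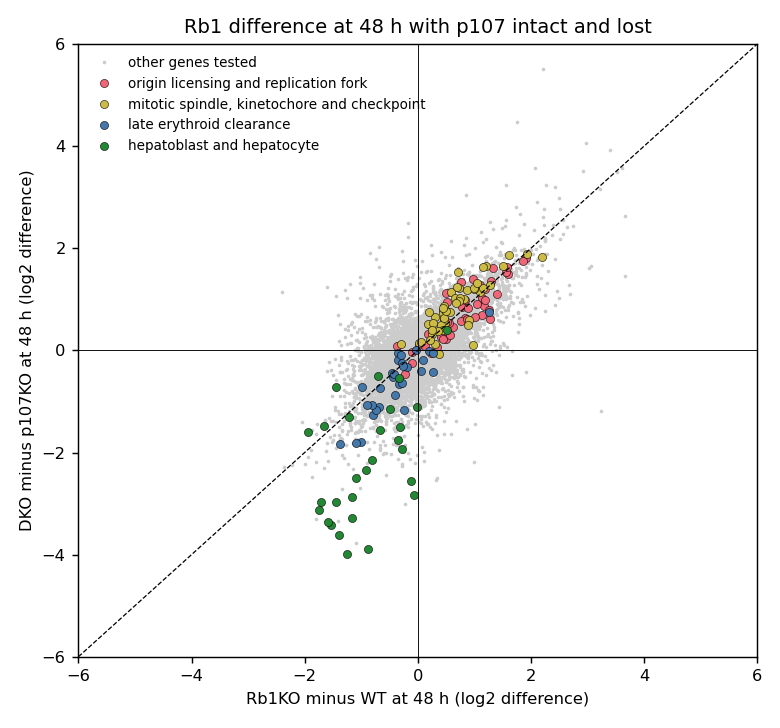
Log2 difference of each of 10916 genes in Rb1KO against WT (x axis) and in DKO against p107KO (y axis) at 48 h, 1 point per gene, with 4 lists in colour and the line of equal differences dashed. Replication and mitotic genes lie up to the right along the line, late erythroid genes down to the left, and most hepatocyte genes below the line (medians -1.01 and -2.24).

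The same contrast with the same weights was computed at 0 h and 24 h, on other arrays. At 0 h 87 genes were higher (0.797%) and 20 lower (0.183%), or 0.98% of those tested, and at 24 h 1168 did (617 higher, 5.65%, and 551 lower, 5.05%, or 10.7% in all). The 0 h total fell to 67 without WT replicate 1 or DKO replicate 2 of that time, to 70 without p107KO replicate 1 and to 71 without WT replicate 2, and the 24 h count to 669 or 715 without 1 of its 2 WT arrays. Of the 1094 genes that rose at 48 h, 1051 (96.1%) were higher at 24 h, where 41.3% of all genes were, and 485 passed there (44.3% of 1094 and 78.6% of 617). At 0 h 855 (78.2%) were higher, against 41.5% of all genes, and 55 passed. Of the 605 genes that fell, 554 (91.6%) were lower at 24 h, against 58.7% of all genes, and 277 passed. At 0 h 406 (67.1%) of them were lower, against 58.4% of all genes, and 16 passed.

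Between 0 h and 48 h the Rb1 difference changed in 757 genes, 6.93% of those tested, more positive in 520 (4.76%) and more negative in 237 (2.17%), and without DKO at 48 h in 473. In 734 of the 757 the difference was larger in size at 48 h. Without both arrays with Y-linked signal 159 genes passed. Replication genes had medians of 0.14, 0.30 and 0.78 at 0, 24 and 48 h, and the change from 0 h passed in 21 of 48, all more positive. Mitotic genes gave 0.18, 0.31 and 0.68, and 14 of 49 passed. Rad51c went from 0.23 through 1.21 to 3.20, and the change from 0 h was 2.97 ± 0.27 (SE, adjusted p = 7.72e-07). Hspa1b already differed at 0 h, at 2.84, 4.34 and 3.12 over the times, and its change from 0 h did not pass (0.28 ± 0.35 SE, adjusted p = 0.796). Bbc3, the PUMA activator of apoptosis, turned from 1.02 at 0 h to -0.74 at 48 h, a change of -1.76 ± 0.30 (SE, adjusted p = 0.000486).

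Between 24 h and 48 h the difference changed in 65 genes (0.595%), 52 more positive (0.476%) and 13 more negative (0.119%). This count was 29 without WT replicate 1, 38 without Rb1KO replicate 2, 31 without DKO at 48 h, and 17 without WT replicate 1 at 24 h. Without both arrays with Y-linked signal no gene passed (0). Slbp went from 0.77 to 1.87, a change of 1.10 ± 0.16 (SE, adjusted p = 0.00247), and Zfp367 from 2.12 to 3.59, a change of 1.47 ± 0.22 (SE, adjusted p = 0.00275). Crem was at -2.49 at 24 h and -1.93 at 48 h, and Dleu2 at 4.23 and 3.51, and neither change passed (adjusted p = 0.605 and 0.429). Hepatocyte genes had medians of -0.26 and -0.21 at 0 h and 24 h against -1.32 at 48 h, and 5 of 28 passed the test of change from 0 h, all more negative. Late erythroid genes gave -0.035, -0.27 and -0.44, and fell in 11 of 30 cases at 24 h as well.

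**Figure D5:**
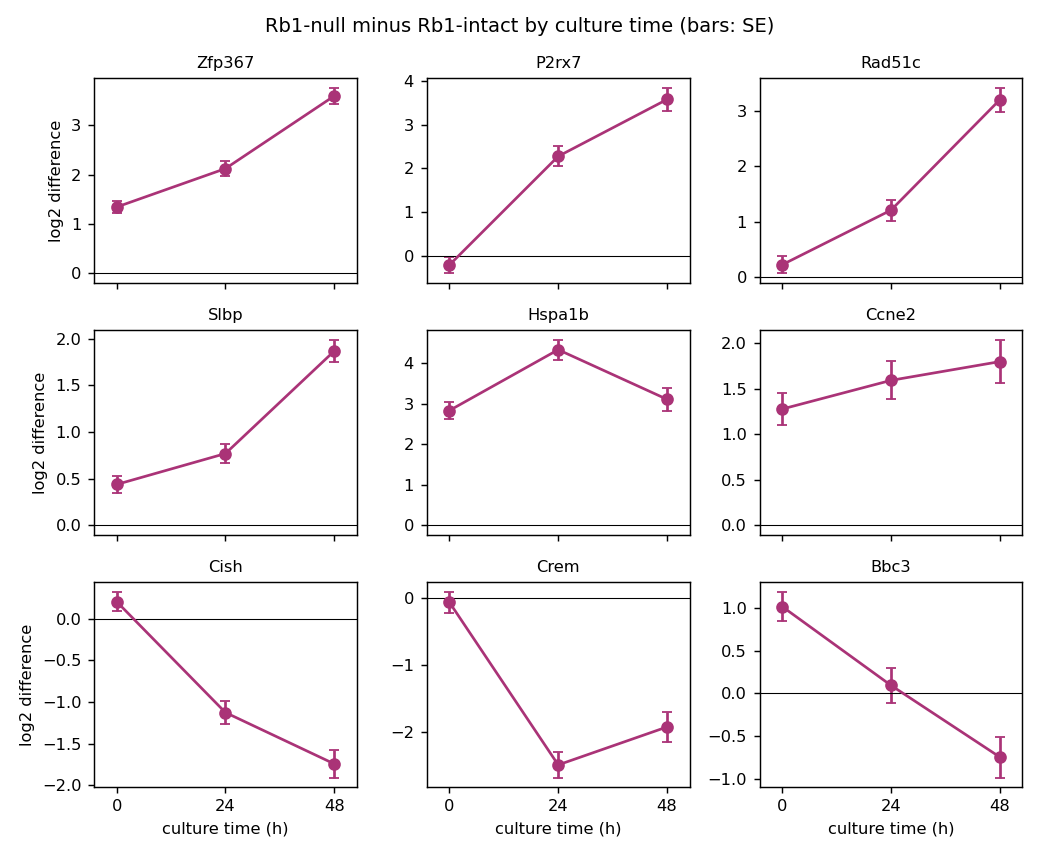
Log2 difference between Rb1-null and Rb1-intact arrays (y axis, a separate range for each gene) at 0, 24 and 48 h of culture for 9 genes picked after their values were seen; points are limma estimates and bars their SE. Zfp367, Rad51c and Slbp are highest at 48 h, Hspa1b at 24 h (4.34), and Cish and Bbc3 go from above 0 at 0 h to -1.74 and -0.74 at 48 h.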

How the data were processed

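The authors' deposited table holds MAS5 signal intensity per probe set on a linear scale, made with GCOS 1.4, per the submitters' processing notes. On the 6 arrays the mean without the outer 2% of probe sets on each side was 496.2 to 497.0, so total brightness is equal by scaling. Of 45037 probe sets, 34945 had 1 gene symbol in the platform annotation, 932 several and 9160 none, and 34741 symbols were updated through Entrez numbers in RefSeq's GRCm38.p6 gene table. The brightest probe set stood for a gene (18193 genes), and genes in the dimmest 40% by mean log2 level were not tested.

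Log2(signal + 32) was fitted with limma 3.58.1 in R 4.3.3, 1 mean per group over all 27 arrays, with a variance prior that follows brightness (15 residual and 7.14 prior degrees of freedom). Groups of 1 array (p107KO and DKO at 48 h, DKO at 24 h) borrow the spread of the others. Tests are two-sided with Benjamini-Hochberg adjustment and a threshold of 0.05. The script was tested on simulated data.

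The comparison, 44 gene lists and tests were chosen with earlier results of these data known, and labels alone put arrays into groups. Genes named are Rb1, Rbl1 and Rbl2, the 15 largest rises and falls with sides that do not overlap and a higher side brighter than the median gene, the 5 smallest adjusted p-values per list, and the 5 smallest in each direction in the changes between times. The rest (Tfdp1, Cdk6, Nme1, Atic, Zfpm1, Cbfa2t3, Abcb6, Gab2, Ulk2, Alb and Afp) were chosen after their values were seen. The rule also took genes whose Rb1 effect differed with p107 state, and none passed that test. Arrays have no read depth, and their number limits the precision. Alternatives were other pseudocounts, filters, normalization, probe set rules, weights, terms and arrays left out. Plots were made in Python 3.11.15 (matplotlib 3.10.9).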

Additional observations from a re-analysis of the deposited data

Results flagged for a closer look

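The Rb1 difference itself differed between culture times, by limma's test of that difference. From 0 h to 48 h it changed in 757 genes and from 24 h to 48 h in 65. The changes from 0 h to 48 h with the smallest adjusted p-values were those of P2rx7 (3.79 on the log2 scale), Rad51c (2.97), Zfp367 (2.25), Ccp110 (2.01) and Tcf19 (1.93) in the positive direction. In the negative direction they were those of H2aw (-1.86), 3110040M04Rik (-2.54), Cish (-1.95), Csrnp2 (-2.22) and Sertad1 (-1.49). The difference in Rb1 signal changed by 1.62 over the same time (adjusted p = 0.000142). From 24 h to 48 h the positive changes were led by Rad51c (1.99), Slbp (1.10), Zfp367 (1.47), Lrr1 (1.26) and 1110002L01Rik (1.61). The negative ones were led by Serpind1 (-2.49), Adamts9 (-1.73), Dennd6b (-1.61), Smad3 (-1.12) and Rhbdf1 (-1.01). Serpind1, Adamts9 and Dennd6b were higher in Rb1-null arrays at 24 h (1.27, 1.03 and 1.27) and gave -1.22, -0.70 and -0.34 at 48 h. Adamts9 and Dennd6b did not pass at 48 h (adjusted p = 0.0584 and 0.367).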

How the results depend on the processing

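The count of genes that differed at 48 h by Rb1 state lay between 1244 and 1914 for other pseudocounts, filters, probe set rules and variance priors, quantile scaling, array weights, the Y-linked term, the 6 arrays alone and each array left out (1244 to 1680). Replicate number as a block (replicate block) gave 2414, of which 56.0% were higher against 64.4% without it. Every group at 48 h has a replicate 1, but only WT and Rb1KO also have a replicate 2 and so deviations from a group mean. Those of WT and Rb1KO replicate 1 had a correlation of 0.212, so the numbers are not known to pair samples. Without the 2 Rb1-null arrays with Y-linked signal, an alternative chosen after the data were seen, it was 490.

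Rb1KO against WT gave 1778 genes with the replicate block, 599 with the 6 arrays alone, 484 without the arrays with Y-linked signal and 492 to 1003 with 1 array left out. DKO against p107KO gave 790 with array weights, 710 with the replicate block, 255 with the Y-linked term and 86 with the 6 arrays alone. It cannot be fitted without DKO or p107KO, and Rb1KO against WT was not rerun for those. The difference between the 2 pairs gave 0 genes in every setting run. At 0 h the Rb1 comparison gave 182 with quantile scaling, 432 with array weights and 67 to 113 with 1 array left out, and at 24 h 669 to 1291. The change from 0 h to 48 h gave 1168 with array weights, 1174 with the replicate block, 159 without the arrays with Y-linked signal and 473 to 884 with 1 array left out. That from 24 h to 48 h gave 41 without a filter, 151 with the replicate block, 42 with the Y-linked term, 0 without the arrays with Y-linked signal and 17 to 92 with 1 array left out. The p107 comparison gave 4 with pseudocount 1, 5 with array weights, 35 with the replicate block, 3 without the trend, 4 with the 6 arrays alone and 1 to 2 with 1 array left out. Leaving out arrays at 0 h or 24 h was also chosen after the data were seen.

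Signs turned for Rb1 (0.033 with the mean over probe sets), Rbl1 (-0.34 to 1.77 with 1 array left out), Rbl2 (0.23 with the Y-linked term, 0.049 without the arrays with Y-linked signal, -0.12 to 0.11 with 1 array left out) and Hbb-b2 (0.056 with quantile scaling, -0.30 to 0.0059 with 1 array left out). Rbl1 is itself the gene lost by label in p107KO and DKO. Without p107KO (-0.34) the only array at 48 h labelled as lacking p107 was Rb1-null, and without DKO (1.77) it was Rb1-intact. The cause of the other turns was not tested. With fewer arrays the fits have less to estimate the spread from, which bears on p-values and not on signs.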
